A study of Mus musculus with 38 samples.

Results

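Alas2, Fech, Ppox, Tfrc and Slc40a1 are genes of heme synthesis and iron transport, followed here in mouse spleen after cyclophosphamide. They were taken by name through the table that pairs array probes with genes, and each was found at 1 probe, so that 5 genes and 5 probes stand among 9616 named genes and 13443 probes. Their choice rested on measured values of these same mice: all 5 had been seen to differ between day 2 and untreated spleens, so values of that comparison are given as a description with no test. Splenocytes came from DBA/2 mice, 5 untreated and 4, 5 and 5 taken on day 1, day 2 and day 5 after 83 mg/kg cyclophosphamide given intraperitoneally. The drug cross-links DNA and is toxic above all to cells that divide. RNA of each mouse, labelled with Cy5, was hybridised against a common pool of bone marrow RNA labelled with Cy3, in 2 technical columns per mouse. The labels call the pool untreated marrow in the field for its cell type and name cyclophosphamide in the field for its treatment, and as all mice share it, it cancels between groups. Dyes were not swapped, and a value is the log2 ratio of spleen over marrow pool: 0 means equal signal, 1 means a signal 2 times as high in spleen. The labels state that the replicates were harvested independently and give no slide or date for a batch.

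Heme is built in a chain of enzymes that starts and ends in mitochondria. Alas2 carries out the first step in red cell precursors and sets the pace of heme production there, Ppox makes protoporphyrin late in the chain, and Fech inserts iron to finish heme. Red cell precursors take up iron through the transferrin receptor Tfrc. Slc40a1 (ferroportin) moves iron the other way, out of the cell, and in spleen it is best known in the macrophages that recycle iron from old red cells. In mice the spleen holds red cell precursors throughout life beside its lymphocytes and macrophages.

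Promoter windows are shown because Alas2, Ppox and Tfrc were all lower on day 2, and to let the bases before each start be compared. They are RefSeq sequence of the GRCm38.p6 build, shown for 3 of the 5 genes and not for Fech and Slc40a1. Each is printed 5′ to 3′ in the direction of the gene, from 250 bases before the transcription start to 10 bases after it, and capitals mark the motifs found. Alas2 lies on chrX:150547167-150547426 (plus strand), Ppox on chr1:171281177-171281436 (minus strand) and Tfrc on chr16:32608646-32608905 (plus strand).
Alas2: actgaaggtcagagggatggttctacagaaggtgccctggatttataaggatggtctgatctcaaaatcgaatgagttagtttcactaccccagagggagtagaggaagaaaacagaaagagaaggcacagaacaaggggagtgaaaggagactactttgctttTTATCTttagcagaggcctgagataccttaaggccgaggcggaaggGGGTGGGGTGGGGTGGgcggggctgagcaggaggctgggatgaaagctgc
Ppox: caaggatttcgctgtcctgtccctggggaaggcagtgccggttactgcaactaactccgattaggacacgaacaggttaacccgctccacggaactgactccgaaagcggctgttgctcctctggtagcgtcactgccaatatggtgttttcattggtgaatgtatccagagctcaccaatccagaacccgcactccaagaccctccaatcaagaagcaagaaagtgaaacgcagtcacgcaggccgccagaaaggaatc
Tfrc: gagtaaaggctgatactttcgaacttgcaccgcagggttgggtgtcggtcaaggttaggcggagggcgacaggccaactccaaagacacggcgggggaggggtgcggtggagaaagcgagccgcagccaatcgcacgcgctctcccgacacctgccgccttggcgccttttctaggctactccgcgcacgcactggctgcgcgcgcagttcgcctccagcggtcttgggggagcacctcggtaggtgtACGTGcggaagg
Words were searched on both strands in the whole window of 300 bases, which reaches 50 bases past the start. A GATA site, here AGATAA with A or T allowed as its first base and A or G as its last, is the word read by GATA1 in red cell precursors. It is present in 29.8% of the 32851 windows of the table, a CACCC box (CCACCC), the kind of word read by KLF1, in 31.5%, an antioxidant response element (TGACNNNGC) in 12.4%, and the core word of a hypoxia response element (ACGTG) in 19.6%. The Alas2 window holds 1 GATA site, on the minus strand at position -86, and a run of 3 overlapping CACCC boxes on the minus strand at positions -40, -35 and -30. Tfrc has 2 start sites in the table. The printed window, of the first start, holds 1 hypoxia core at position -2, and 1 CACCC box lies at position 41, beyond the bases printed. The window of the second start (chr16:32608872-32609171), not printed, overlaps the first, and counted from that start it holds the hypoxia core at -228 and CACCC boxes at -186, -162 and -6. The Ppox window holds none of the 4 motifs. Each motif is common among promoters, and the matches describe letters in these windows.

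The limma tests ran on 8319 of the 13443 probes (61.9%), those measured in 3 or more mice of each group. The 2 columns of a mouse correlated between 0.581 and 0.962, with 3 mice under 0.7 (untreated mice 2 and 4 and day 5 mouse 5), and the number of mice limits the precision. Against the marrow pool, B cell markers (5 measured) had a mean log2 ratio of 0.64 and T cell markers (3 measured) of 0.37 in untreated mice. Neutrophil markers (6 measured) had -1.90, and these means have the direction of the labelled tissue. Of the single markers, 3 of 5, 2 of 3 and 0 of 6 had an untreated mean above 0. Alas2, Fech, Ppox and Slc40a1 were measured in all 19 mice and on all 38 columns. Tfrc was measured in 17 mice and on 32 columns: untreated mouse 1 and day 5 mouse 2 have no value, and day 1 mice 1 and 4 rest on 1 column each.

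Alas2 showed the widest swing of the 5 genes: its level in spleen was lower on day 1, far lower on day 2, and back near the untreated level on day 5. In untreated mice 1 to 5 its log2 ratio was -0.06, -0.29, -0.21, -0.40 and -0.58, a mean of -0.31 ± 0.19 (SD, n = 5). On day 1 the 4 mice had -1.82, -2.77, -0.96 and -2.03, and on day 2 the 5 mice had -4.41, -3.78, -4.67, -3.42 and -4.98. Every day 1 mouse lay below every untreated mouse (4.08% of all 8319 probes have such groups), and every day 2 mouse below every day 1 mouse (2.25% of probes). Day 5 mice had 0.018, -1.47, -0.56, -1.10 and -0.68: mouse 1 stood above all untreated mice, mouse 3 within their range, mouse 5 just below it, and mice 2 and 4 within the day 1 range. Against untreated, the difference was -1.59 ± 0.33 (SE) on day 1, a level 3.01-fold lower, -3.94 ± 0.32 on day 2, 15.4-fold lower, and -0.45 ± 0.32 on day 5. Single day 2 mice lay between 8.63-fold and 25.5-fold below the untreated mean. In order of level, untreated and day 5 overlapped, day 5 and day 1 overlapped, and day 2 stood apart from the rest. The 2 columns of a mouse differed by a median of 0.09 and at most 0.36 for Alas2, less than the pooled SD of 0.56 between mice of a group. In bulk RNA, fewer cells of a type and less RNA per cell cannot be told apart.

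Fech, which inserts iron into protoporphyrin, was also lower on days 1 and 2, with far more spread among mice. Untreated mice had log2 ratios of -0.08, -0.29, -0.14, 0.27 and 0.10 (mean -0.03 ± 0.22). On day 1 the values were -0.45, -1.40, -1.15 and -1.99, all below the untreated range. On day 2 they were -2.42, -2.50, -0.21, -0.98 and -1.55. Day 2 mouse 3 stood within the untreated range although the same mouse had the next to lowest Alas2 of all, and without it the 4 other day 2 mice lay below every untreated mouse. Day 5 mice had 0.47, -0.64, -0.57, -0.37 and -0.27, mouse 1 above and mice 2 to 4 below the untreated range. The differences from untreated were -1.22 ± 0.37 (2.33-fold lower) on day 1, -1.51 ± 0.35 (2.84-fold lower) on day 2 and -0.25 ± 0.35 on day 5. The day 2 SD of 0.97 was the largest of any of the 5 genes in any group, and the day 2 columns of mouse 3 were close to each other, at -0.33 and -0.10.

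Ppox was about as low on day 1 as on day 2. Its mean was -1.903 on day 1 and -1.805 on day 2, while its median was -1.811 and -2.002. Which of the 2 days was lower thus depends on the measure. Untreated mice had -0.43, -1.52, 0.04, -0.08 and -0.59 (mean -0.52 ± 0.62). Untreated mouse 2 stood apart, and its 2 columns, at -2.21 and -0.82, differed by more than those of any other mouse for this gene. The 4 day 1 mice had -1.54, -2.45, -1.80 and -1.82, all below the untreated mice. Day 2 mice had -2.19, -2.0, -1.69, -0.97 and -2.18, and only mouse 4, at -0.97, overlapped with the untreated range, through untreated mouse 2. Day 5 mice had 0.10, -1.42, -0.76, -1.28 and -0.58, and every one of them lay above every day 1 mouse. Against untreated the differences were -1.39 ± 0.33 (2.62-fold lower), -1.29 ± 0.31 (2.44-fold lower) and -0.27 ± 0.31 on days 1, 2 and 5.

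Tfrc, which brings transferrin-bound iron into the cell, stood below the untreated mice on day 2. The 4 untreated mice measured had -0.20, 0.21, -0.07 and 0.0046 (mean -0.02 ± 0.17). Day 1 mice 1, 3 and 4 had 0.14, 0.08 and 0.37, within or above the untreated range, whereas day 1 mouse 2 had -1.23, the lowest Tfrc value of all mice. The same mouse had the lowest Alas2 and the lowest Ppox of day 1. On day 2 the values were -0.95, -1.13, -0.79, -0.72 and -0.81, all below the untreated range and with the smallest day 2 SD of the 5 genes (0.16), although the 2 columns of mouse 5 were -1.38 and -0.24. Day 5 mice 1, 3, 4 and 5 had 0.44, -0.0024, -0.61 and -0.33, on either side of the untreated range. The differences from untreated were -0.14 ± 0.27 on day 1, -0.86 ± 0.26 (1.82-fold lower) on day 2 and -0.11 ± 0.27 on day 5. Without day 1 mouse 2 the day 1 difference was 0.21, so its sign rests on that mouse.

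Slc40a1, the iron exporter, was the gene of the 5 with higher signal in spleen than in the marrow pool in every mouse, and it differed from untreated the opposite way. Untreated mice had 1.66, 1.39, 1.38, 1.42 and 1.65 (mean 1.50 ± 0.14). On day 1 the values were 3.40, 2.20, 2.23 and 2.03, and on day 2 they were 2.18, 2.07, 3.22, 3.54 and 2.76. All 9 mice of days 1 and 2 stood above all untreated mice. Day 5 mice had 1.50, 1.91, 1.75, 2.16 and 2.14, 4 of 5 above the untreated range. The differences from untreated were 0.97 ± 0.28 (1.95-fold higher) on day 1, 1.25 ± 0.26 (2.38-fold higher) on day 2 and 0.39 ± 0.26 on day 5. Within both days the mice fell into higher and lower values: day 1 mouse 1 and day 2 mice 3 and 4 were above 3, and 5 of the other 6 mice lay between 2.03 and 2.23. Without day 1 mouse 1 the day 1 difference was 0.65. With quantile normalization the day 2 difference was 0.74 and with arrays brought to equal spread 0.75.

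**Figure D1:**
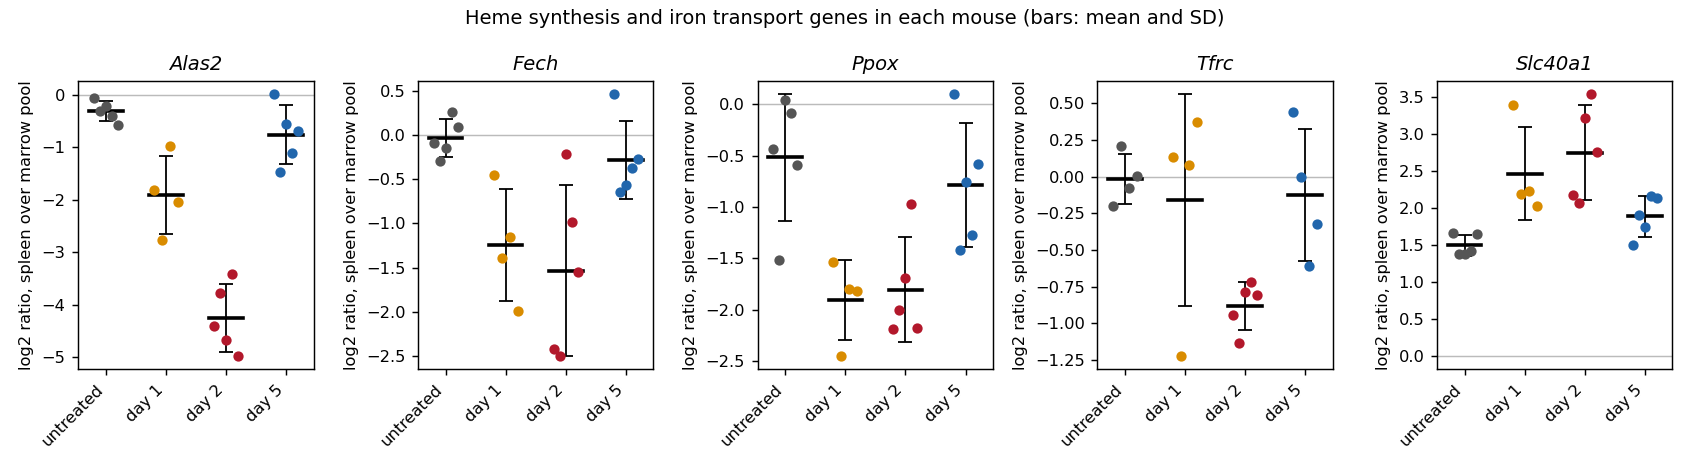
Log2 ratio of spleen over marrow pool (vertical axes, scaled for each gene) of Alas2, Fech, Ppox, Tfrc and Slc40a1 in untreated, day 1, day 2 and day 5 mice, 1 point per mouse, with the mean and SD as bars. Alas2 steps down from untreated to day 1 to day 2 without overlap, while Slc40a1 lies above the untreated mice in all 9 mice of days 1 and 2.

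The day 2 comparison with untreated chose the genes, and 691 probes (8.31%) passed the limma test in it at an adjusted p under 0.05. The heme and iron genes nearest to that threshold on its inner side were Tfrc (-0.86 ± 0.26) and Tmem14c (-0.50 ± 0.15). On its outer side they were Slc25a37 (-0.54 ± 0.21) and Tfr2 (-0.55 ± 0.23). Tfrc was chosen in this comparison, so its place there is no test of it. The threshold alone did not set the choice, since other list genes, Tmem14c among them, also passed and are not among the 5. Of the 5 genes, 2 (Alas2 and Tfrc) had every day 2 mouse below every untreated mouse, as had 4.98% of all probes, and 1 (Slc40a1) had every day 2 mouse above, as had 3.86%. On day 1, 3 of the 5 (Alas2, Fech and Ppox) had every mouse below the untreated mice, against 4.08% of all probes, and 1 (Slc40a1) had every mouse above, against 4.24%. On day 5 the groups overlapped for all 5 genes, where 0.914% of probes lay wholly below and 0.673% wholly above. These comparisons share the untreated mice. Set against its own day 2 difference, the day 1 difference was 108% for Ppox, 81% for Fech, 77.1% for Slc40a1, 40.3% for Alas2 and 16.5% for Tfrc. On day 5 the share was 11.4% for Alas2, 12.6% for Tfrc, 16.5% for Fech, 21.1% for Ppox and 31.4% for Slc40a1. On day 1 the shares thus ran from 16.5% to 108%, and on day 5 from 11.4% to 31.4%.

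In all 5 genes the day 5 level was nearer to the untreated level than the day 2 level was. The day 5 level was above the day 2 level by 3.49 ± 0.32 for Alas2 (11.3-fold), 1.26 ± 0.35 for Fech, 1.02 ± 0.31 for Ppox and 0.76 ± 0.26 for Tfrc, and below it by 0.86 for Slc40a1 (-0.86 ± 0.26). In 2 of the 5 genes, Alas2 and Tfrc, every day 5 mouse lay above every day 2 mouse, as did 4.8% of all probes. These values are a description too, since the day 2 mice took part in the choice. With quantile normalization the difference was 0.27 for Ppox, -0.30 for Slc40a1 and 2.50 for Alas2.

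The means of day 5 and day 1 use none of the mice on which the genes were chosen. The SE, interval and p also draw on the spread within untreated and day 2 mice, since 1 model held all 4 groups. This is the comparison in which the 5 genes were tested, although earlier results from these days were known. None of the 5 genes passed the limma test with Benjamini-Hochberg adjustment over 8319 probes, of which 76 (0.914%) passed. Without adjustment 3 of 5 had p under 0.05, against 8.63% of all probes. Alas2 was 2.20-fold higher on day 5 than on day 1 (1.14 ± 0.33 SE, 95% interval 0.44 to 1.84, limma adjusted p = 0.137). Ppox was 2.17-fold higher, with no overlap between the groups as in 2.58% of probes (1.11 ± 0.33, interval 0.44 to 1.79, limma adjusted p = 0.134). Fech was 1.96-fold higher (0.97 ± 0.37, interval 0.20 to 1.75, limma adjusted p = 0.367). Slc40a1 was 1.49-fold lower (-0.57 ± 0.28, interval -1.16 to 0.01, limma adjusted p = 0.595). Tfrc had a difference of 0.03 ± 0.27 (interval -0.54 to 0.60, limma adjusted p = 0.996), and its sign turned with day 1 mouse 2, day 5 mouse 1 or day 5 mouse 3 left out. Without day 1 mouse 3, which had the highest Alas2 of its group, Alas2 passed (1.45, limma adjusted p = 0.0455), and over the other alternatives it did not.

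**Figure D2:**
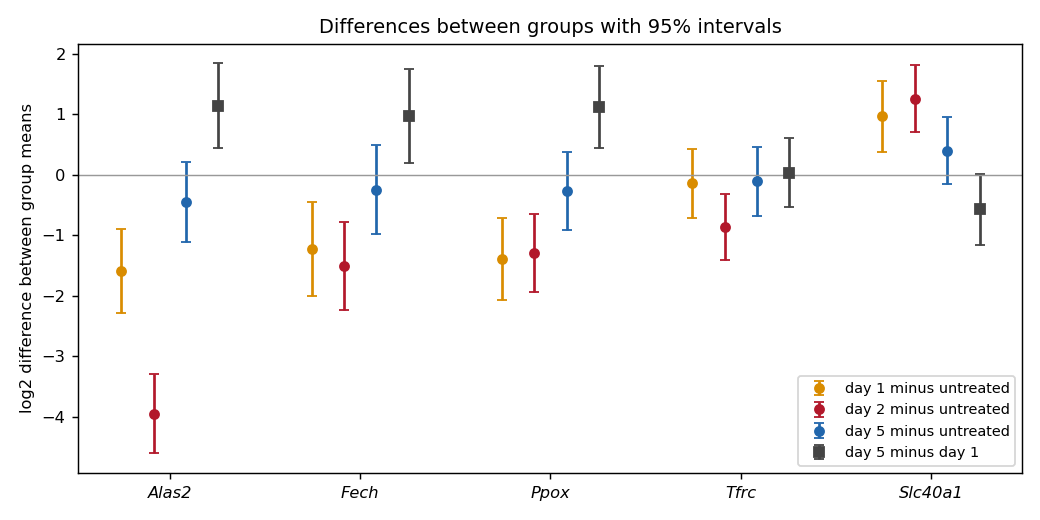
Log2 differences between group means (vertical axis) with 95% intervals for Alas2, Fech, Ppox, Tfrc and Slc40a1: circles are day 1, day 2 and day 5 minus untreated, and squares are day 5 minus day 1. The day 2 difference of Alas2 (-3.94) is the largest, Slc40a1 is the gene with differences above 0 on all 3 days, and the squares of the 3 heme enzymes lie above 0.

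Taken mouse by mouse, the 3 chosen heme enzymes and the exporter parted in all 9 mice of days 1 and 2. The genes were chosen for differing between day 2 and untreated mice, so these values are a description with no test. Cpox, the other heme enzyme measured, is not in the mean (-0.06 on day 2 and 0.10 on day 1, from untreated). The mean log2 change of Alas2, Fech and Ppox from the untreated mean was -1.40 ± 0.47 (SD, n = 4) on day 1, -2.25 ± 0.52 on day 2 and -0.32 ± 0.52 on day 5. Minus the change of Slc40a1 in the same mouse it was -2.36 ± 0.50 on day 1 (-2.89 to -1.75), -3.50 ± 0.31 on day 2 (-3.88 to -3.04) and -0.72 ± 0.73 on day 5 (-1.30 to 0.48), where untreated mice had an SD of 0.29. Day 5 mouse 1 was the exception among treated mice: its heme enzymes were 0.48 above the untreated mean and its Slc40a1 was at it, with a change of 0.0050. On day 2 the difference varied less between mice than either side of it did. Day 2 mice 3 and 4, with the highest Slc40a1 (changes of 1.72 and 2.05), had the least lowered mean of the 3 enzymes (-1.91 and -1.50). Mice 1 and 2, with the lowest Slc40a1 (0.68 and 0.57), had -2.72 and -2.48. The mean of mouse 3 rests on Fech: its changes were -4.37 for Alas2, -0.19 for Fech and -1.17 for Ppox. Those of mouse 4 were -3.11, -0.95 and -0.46. For Tfrc the day 2 change minus that of Slc40a1 was -2.12 ± 0.50 (-2.75 to -1.61), and on day 1 it was -1.11 ± 0.86 (-1.91 to -0.15).

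**Figure D3:**
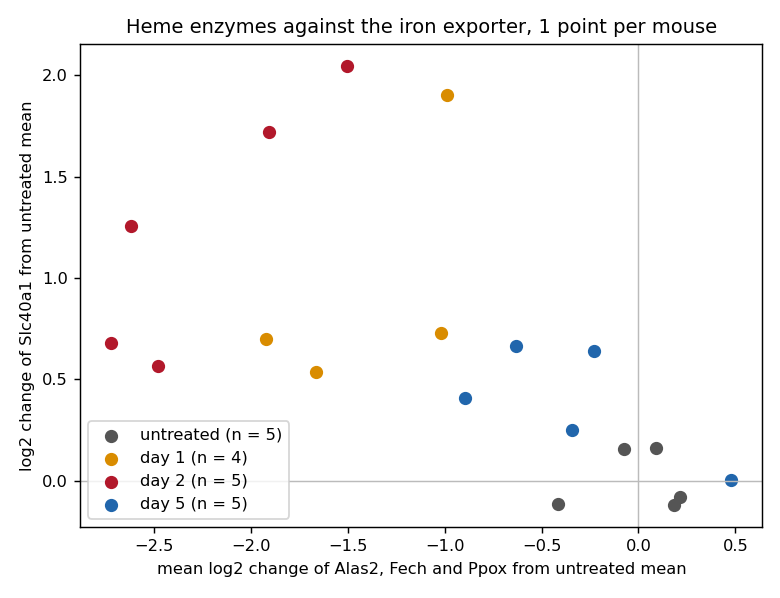
Mean log2 change of Alas2, Fech and Ppox from the untreated mean (horizontal axis) against the log2 change of Slc40a1 (vertical axis), 1 point per mouse, coloured by group. All 9 mice of days 1 and 2 lie in the upper left, with enzymes below and exporter above the untreated mean, and day 5 mouse 1 lies beside the untreated mice.

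With the group means removed, the 5 genes were compared across mice among themselves and with the mean of 11 red cell precursor markers and of 8 macrophage markers, in 20 relations that were added after the data were seen. Ppox followed Alas2 (r = 0.62, permutation adjusted p = 0.0206, rho = 0.60, permutation adjusted p = 0.0559, 19 mice, r = 0.64 without the 2 mice farthest out). Ppox also followed Tfrc (r = 0.63, permutation adjusted p = 0.0107, rho = 0.73, permutation adjusted p = 0.0148, 17 mice, r = 0.70). Within groups the relation of Ppox with Tfrc thus passed by r and by rank, and that with Alas2 by r alone. The untreated and day 2 mice that chose the genes are among these mice, and the relations were not repeated under other scalings. Fech followed Ppox by rank (rho = 0.66, permutation adjusted p = 0.0325) and less by r (0.53, permutation adjusted p = 0.0645). Fech and Slc40a1, which differ in direction between groups, had r = 0.70 within groups (unadjusted permutation p = 0.0245, permutation adjusted p = 0.0815, rho = 0.64, r = 0.62 without the 2 mice farthest out), a relation that missed the threshold. Alas2 and Slc40a1 had r = -0.01 (permutation adjusted p = 0.964). Of the 20 relations 4 had a permutation adjusted p under 0.05 by r and 7 without adjustment, with 100000 permutations within groups, two-sided.

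Markers of red cell precursors came from a list without the 5 genes, chosen with earlier results of these data known. Their counts are therefore a description. The mean of these markers was lower on the same days as the heme enzymes. Of 27 markers 11 were measured, and in each mouse the mean was taken over those with a value (Epor in 15 mice, Car2 in 18). This mean log2 ratio was -0.30 in untreated mice (lowest -0.67, highest -0.09) and -1.22 on day 1 (-1.54 to -0.82). It was -1.52 on day 2 (-2.12 to -0.88) and -0.30 on day 5 (-0.59 to 0.11). In the limma test 5 of 11 fell on day 1 (2.33% of all probes passed) and 6 of 11 on day 2 (8.31%), and 3 of 11 rose from day 1 to day 5 (0.914%). Within groups their mean followed Alas2 (r = 0.73, permutation adjusted p = 0.0206, rho = 0.60, permutation adjusted p = 0.0739, r = 0.78 without the 2 mice farthest out) and Ppox (r = 0.74, permutation adjusted p = 0.0107, rho = 0.66, permutation adjusted p = 0.0325, r = 0.68), while the relations with Fech, Tfrc and Slc40a1 missed the threshold. Their r was 0.23 with Fech, 0.41 with Tfrc and 0.23 with Slc40a1, and without the 2 mice farthest out it was 0.54, 0.22 and -0.34, so that the sign for Slc40a1 rests on those mice. Day 2 mouse 5 had the lowest markers of all mice (-2.12) and the lowest Alas2 (-4.98). The red cell precursor markers that did not pass on day 2 were Gata1 (-0.50), Rhag (-0.16), Hba-a1 (-0.13), Car1 (-0.07) and Epor (0.19). Markers of dividing cells, 9 of 14 measured, went from -0.39 in untreated mice to -1.45, -1.71 and -0.52 on days 1, 2 and 5. On each of days 1 and 2, 5 of 9 fell, beside 2.33% and 8.31% of all probes that passed. Those that did not pass on day 2 were Kif11 (-0.69), Bub1 (-0.49), Mki67 (-0.35) and Plk1 (-0.03).

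The mean of the macrophage markers was above its untreated value on each day, while few single markers passed the test. This list and the other marker lists were also chosen with earlier results known. Of 16 macrophage markers 8 were measured, and in each mouse the mean was taken over those with a value. This mean was 0.73 in untreated mice (0.26 to 1.06) and 1.52 on day 1 (1.25 to 1.78). It was 1.44 on day 2 (0.84 to 2.07) and 1.23 on day 5 (0.70 to 1.80). On day 5 C1qa, measured in 15 mice, differed from untreated by 1.84 and C1qc, in 17 mice, by 1.02. The other macrophage markers had day 5 differences between -0.15 and 0.40. Of the 8, 1 rose on day 1 (2.33% of all probes passed), 2 on day 2 (8.31%) and 0 on day 5 (0.0721%). At an unadjusted limma p under 0.05 there were 4, 4 and 2 of 8 on days 1, 2 and 5. Of all 8319 probes, 1099, 1739 and 434 had such a p on these days. From day 2 to day 5, 1 of 8 fell and 1 rose past the limma threshold, beside 5.3% of all probes. Siglec1 fell by 0.99 ± 0.155 (limma adjusted p = 0.000427) and C1qa rose by 1.76 ± 0.44 (limma adjusted p = 0.0278). Within groups the mean of the macrophage markers had r = -0.20 with Slc40a1 (permutation adjusted p = 0.638). Means of B cell markers (0.64, 0.79, 0.81 and 0.54) and T cell markers (0.37, 0.49, 0.59 and 0.41) in untreated, day 1, day 2 and day 5 mice spanned less than 0.3. Single B cell markers differed between treated days. On day 5 Cd22 lay below its day 2 level (-0.96 ± 0.16, limma adjusted p = 0.000615) and its day 1 level (-0.87 ± 0.17, limma adjusted p = 0.00986). Ms4a1 lay below its day 2 level (-0.66 ± 0.18, limma adjusted p = 0.0329). Against untreated 0 of 5 B cell markers passed. Platelet and megakaryocyte markers (5 of 8 measured) had means of 0.10, 0.53, 0.73 and 0.93 in untreated, day 1, day 2 and day 5 mice. On days 1, 2 and 5, 0, 1 and 1 of 5 passed the limma threshold, beside 2.33%, 8.31% and 0.0721% of all probes. At an unadjusted p under 0.05 there were 2, 3 and 4 of 5, beside the counts over all probes given above. The marker that passed, Itga2b, an integrin subunit of platelets, rose by 0.85 on day 2 (limma adjusted p = 0.0157) and by 1.10 on day 5 (limma adjusted p = 0.0396). Its day 5 call was lost in many alternatives, in which 0 probes were called higher. These were technical column 2 alone, a variance trend, the block on mouse number and the fit without mice of low column correlation. It was lost too without untreated mouse 1, 2 or 5, day 1 mouse 4, or day 5 mouse 2, 3, 4 or 5. Neutrophil markers had means of -1.90, -2.50, -2.32 and -1.75, with 0 of 6 past the limma threshold on days 1, 2 and 5 (1, 1 and 0 at an unadjusted p under 0.05). The part of any of these cell types in the levels of the 5 genes was not tested.

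**Figure D4:**
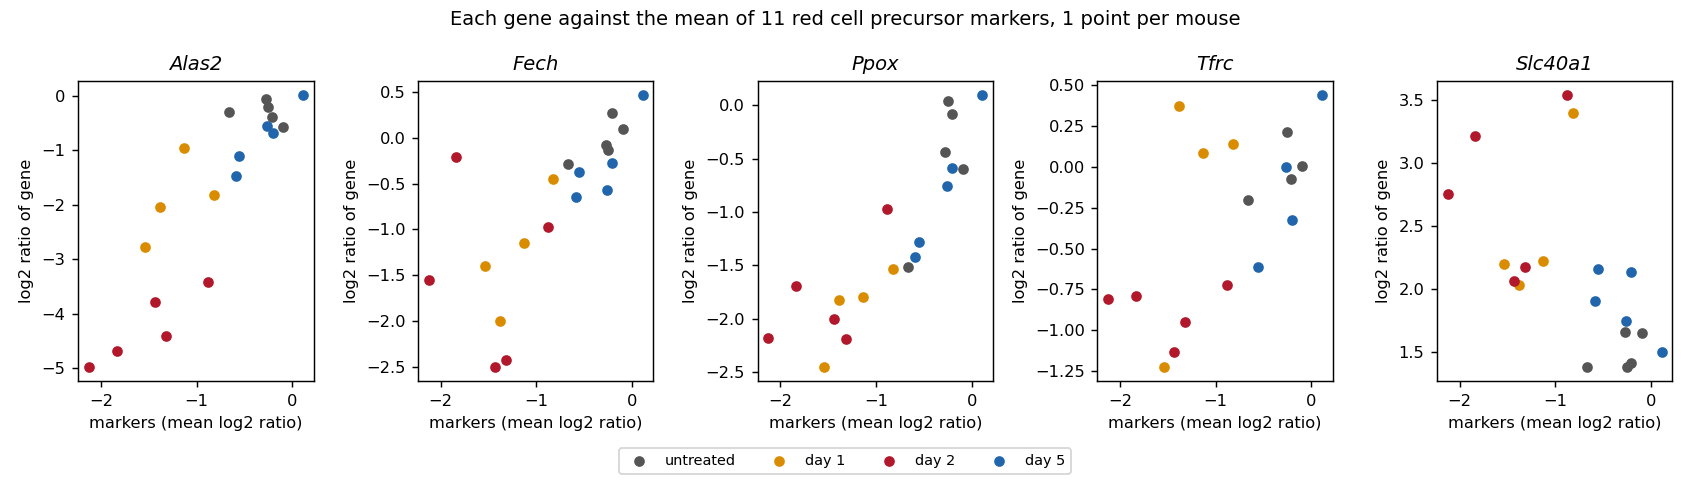
Log2 ratio of Alas2, Fech, Ppox, Tfrc and Slc40a1 (vertical axes) against the mean log2 ratio of 11 red cell precursor markers (horizontal axes), 1 point per mouse, coloured by group. Alas2 and Ppox are lower where the markers are lower, Fech of day 2 mouse 3 (-0.21) stands off, and the Slc40a1 values above 3 come from mice of days 1 and 2.

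Beyond the 5 genes, the lists of heme and iron handling hold 60 genes, of which 45 are on the array and 28 were measured well enough to test. These lists too were chosen with earlier results of these data known. On day 1, 0 rose and 1 fell (2.33% of all probes passed), on day 2, 2 rose and 5 fell (8.31% passed), and on day 5, 0 passed in the limma test, where 0.0721% of all probes passed, with 2 at an unadjusted p under 0.05, against 5.22% of all probes. The median difference of the 28 on day 2 was -0.08, against 0.01 over all probes. From day 2 to day 5, 4 rose and 0 fell (5.3% of all probes passed), and from day 1 to day 5, 1 rose (0.914%). The 5 genes, chosen for differing, are not part of these counts. The other enzymes of heme synthesis were mostly out of reach: Alas1, the form of the first enzyme used outside red cells, had values in 10 mice, Uros in 11, and Alad and Urod in 0. Cpox, which acts just before Ppox, was measured and had a day 2 difference of -0.06 ± 0.16 and a day 1 difference of 0.10 ± 0.16 (limma adjusted p = 0.867 and 0.868).

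Of the genes for mitochondrial iron and heme precursor transport and iron-sulfur assembly, 9 were measured, and on day 2, 4 fell, 0 rose and 5 did not pass, where 8.31% of all probes passed. Among those that did not pass, Hspa9, a mitochondrial chaperone, had 0.19 ± 0.24 and Iscu, the scaffold on which iron-sulfur clusters are built, had -0.10 ± 0.14. Isca1, which helps assemble iron-sulfur clusters, fell by 1.33 ± 0.23 (limma adjusted p = 0.000983), from 0.09 ± 0.35 in untreated mice to -1.25 ± 0.60 on day 2, and rose by 1.22 ± 0.25 from day 2 to day 5 (limma adjusted p = 0.00530). Abcb10, a mitochondrial transporter that supports iron import in red cell precursors, fell by 1.44 ± 0.42 (limma adjusted p = 0.0415), with day 2 mice from -2.64 to 0.19. Slc25a39, a mitochondrial carrier for glutathione, fell by 0.56 ± 0.15 (limma adjusted p = 0.0305). Tmem14c, which is needed to bring porphyrin into mitochondria for the last steps of heme synthesis, fell on day 1 (-0.62 ± 0.16, limma adjusted p = 0.0416) and day 2 (-0.50 ± 0.15, limma adjusted p = 0.0427). Tmem14c also was the pathway gene that rose from day 1 to day 5 (0.86 ± 0.16, limma adjusted p = 0.00775), every day 5 mouse lying above every day 1 and every day 2 mouse. Slc25a37 (mitoferrin-1), which imports iron into mitochondria, had a day 2 difference of -0.54 ± 0.21 (limma adjusted p = 0.132). The day 2 fall of Isca1 passed in all 30 alternatives in which it was measured. That of Slc25a39 (-0.61 to -0.51 over the alternatives) missed the threshold in 11 of 28, among them with untreated mouse 2, 3 or 5 or day 2 mouse 2, 4 or 5 left out. That of Abcb10 (-1.91 to -0.97) missed it in 17 of 30, among them without untreated mouse 1, 2, 3 or 4, day 1 mouse 1, day 2 mouse 1 or 2, or day 5 mouse 2, 3 or 5. That of Tmem14c (-0.60 to -0.33) missed it in 20 of 31 and its day 1 fall (-0.72 to -0.45) in 15 of 31, both without untreated mouse 2, 3 or 4, day 1 mouse 3 or 4, or day 5 mouse 4. The day 2 fall was lost too without day 2 mouse 1, 3, 4 or 5 or day 5 mouse 2, and the day 1 fall without day 1 mouse 1 or 2. The rise of Tmem14c from day 1 to day 5 passed in all 31.

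Among genes of iron export and storage, Cp, the ferroxidase ceruloplasmin that works with ferroportin, rose on day 2 by 1.03 ± 0.29 (limma adjusted p = 0.0290), from 1.03 ± 0.55 to 2.07 ± 0.44. Its day 1 difference was 0.96 ± 0.31 (limma adjusted p = 0.111), beside 0.97 ± 0.28 for Slc40a1. Pcbp1, an RNA-binding protein that also delivers iron to ferritin, fell by 1.48 ± 0.29 on day 2 (limma adjusted p = 0.00246) and rose by 1.35 ± 0.29 from day 2 to day 5 (limma adjusted p = 0.00749). The ferritin genes Fth1 and Ftl1, which store iron, had day 2 differences of 0.49 ± 0.28 and 0.44 ± 0.41 and did not pass. Of heme breakdown and transport, Lrp1, a receptor that takes up the heme carrier hemopexin among many other ligands, rose on day 2 by 1.16 ± 0.31 (limma adjusted p = 0.0226), and Hp (haptoglobin), which binds free hemoglobin, rose from day 2 to day 5 by 1.50 ± 0.44 (limma adjusted p = 0.0486). Hmox1, the heme-degrading enzyme, had values in 9 mice and was not tested. Tfr2, a relative of Tfrc in red cell precursors and liver, had -0.77 ± 0.23 on day 1 (limma adjusted p = 0.0827) and -0.55 ± 0.23 on day 2 (limma adjusted p = 0.158). Regulators of iron and heme had 0 of 4 that passed the limma test on any day. At an unadjusted limma p under 0.05 there was 1 on day 1 and 0 on days 2 and 5. Of all 8319 probes, 1099, 1739 and 434 had such a p on days 1, 2 and 5. Hamp, the hormone hepcidin that removes ferroportin from the cell surface, had -0.61 ± 0.31 on day 2 (limma adjusted p = 0.257). The rise of Cp (0.54 to 1.21 over the alternatives) missed the threshold in 10 of 31, among them without untreated mouse 2 or 4 or day 2 mouse 1, 2, 3 or 5. That of Lrp1 (0.88 to 1.35) missed it in 7 of 30, among them without untreated mouse 1 or 4 or day 2 mouse 2 or 5. The rise of Hp (0.37 to 1.75) missed it in 21 of 31, among them with any of 15 mice left out, which were the mice of all 4 groups except untreated mice 4 and 5 and day 5 mice 1 and 3. The day 2 fall of Pcbp1 missed it in 1 of 31, with technical column 1 alone, and its rise from day 2 to day 5 (0.78 to 1.48) missed it in 3 of 31, with quantile normalization, arrays of equal spread or technical column 1 alone.

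**Figure D5:**
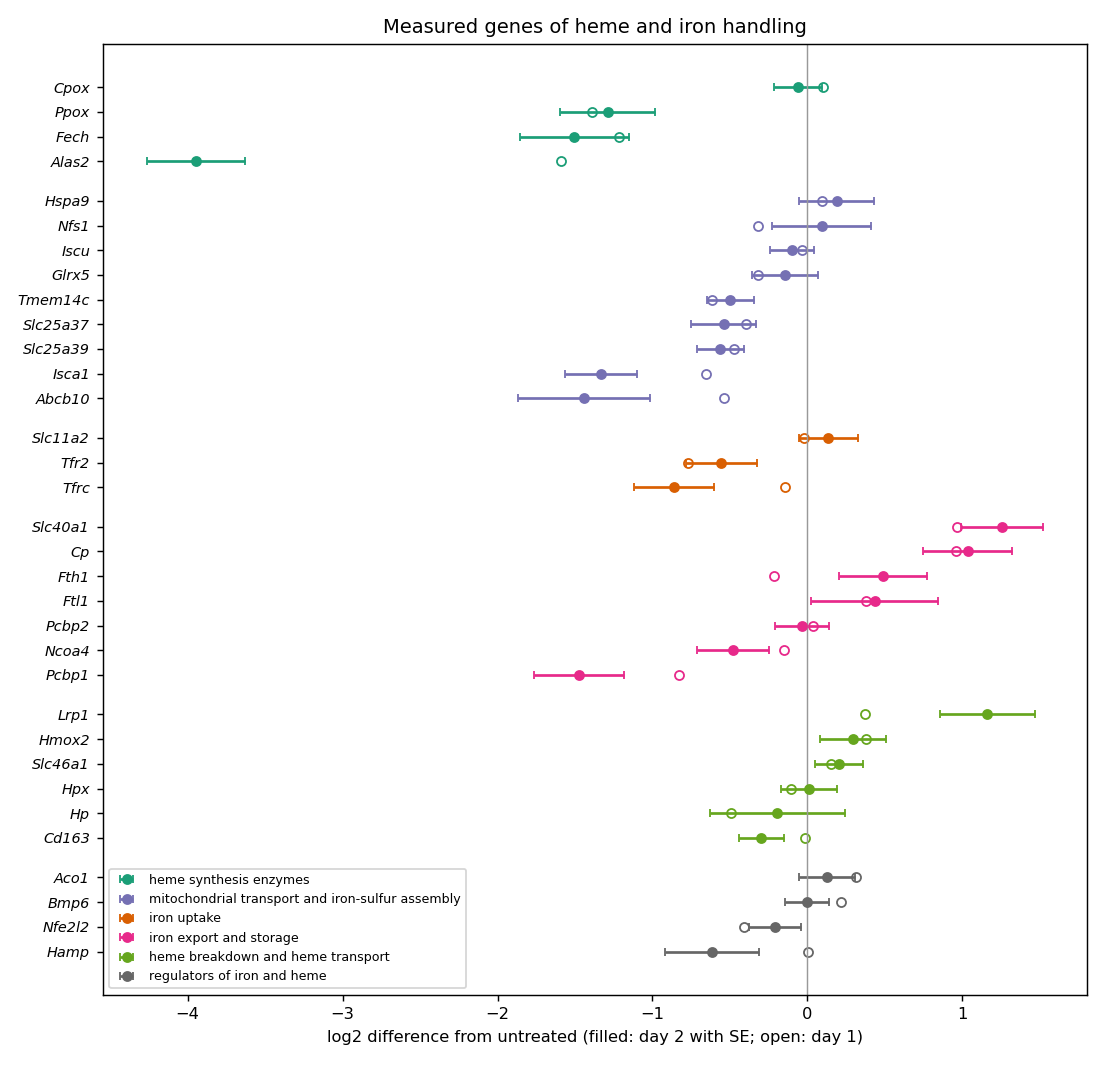
Log2 difference from untreated (horizontal axis) of all measured genes of heme and iron handling, grouped and coloured by list: filled points are day 2 with the SE as bars and open points are day 1. Alas2, at -3.94, lies far left of every other gene, and Slc40a1, Lrp1 and Cp lie farthest right on day 2.

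Over the 19 mice and 5293 probes measured in all of them, the genes most like Alas2 were Vav2 (Pearson r = 0.96), Klk11 (0.96), Snx24 (0.95), Ube2l6 (0.95) and Izumo1r (0.94). Vav2 came closest in size as well, with group means of -0.34, -1.74, -3.90 and -1.06 in untreated, day 1, day 2 and day 5 mice. With group means removed, Ube2l6 kept the highest r of these with Alas2 (0.88). Most like Slc40a1 were Iqgap1 (0.91), Tmbim6 (0.87), Gnai3 (0.84), Ankrd13d (0.84) and Itm2b (0.83). Iqgap1 had smaller differences than Slc40a1, from -0.21 in untreated mice to 0.22 on day 1, 0.60 on day 2 and -0.26 on day 5, and kept r = 0.90 with group means removed. None of these genes belongs to the heme and iron lists. The mice share the 4 groups and the reference pool, so these correlations are a description.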

How the data were processed

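Per the labels' protocols, RNA of splenocytes was extracted with Qiagen RNeasy Midi, amplified with Ambion Amino Allyl MessageAmp II and hybridised on 2-colour arrays. Each deposited value is a log2 ratio (spleen RNA against the marrow pool). The log base was taken as 2. How background was corrected, spots filtered and arrays normalized is not stated in the labels. Array medians run from -0.0212 to 0.0132 and values stop at 6 and -6. The 2 columns of a mouse were averaged, and probes with at least 3 mice in each group were tested by lmFit and eBayes of limma 3.58.1 (R 4.3.3) in 1 model of the 4 groups. P-values were two-sided and adjusted by Benjamini-Hochberg over all probes tested, with a threshold of 0.05. The steps were tested on simulated data. Marker means of a mouse leave out markers without a value in that mouse. The labels do not tell whether the 2 columns of a mouse share a slide.

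The 5 genes and all lists were chosen with earlier results of these data known. Named are the 5 genes, list members past the threshold or with the 2 smallest p of a list, those nearest the threshold on day 2, and the 5 probes most like Alas2 and Slc40a1. Genes of lists not measured, Fth1, Ftl1, Slc25a37, Hspa9 and Iscu, and red cell precursor and dividing cell markers that did not pass on day 2 are named for contrast. Alternatives were 3 other scalings, each technical column, 2 other limits for missing mice, array weights, a variance trend, only the groups compared, a block on mouse number, each mouse left out, and the fit without the 3 mice whose columns correlate below 0.7.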

Additional observations from a re-analysis of the deposited data

Results flagged for a closer look

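Slc40a1 in day 1 mouse 1 had a log2 ratio of 3.40, while the other 3 day 1 mice lay between 2.03 and 2.23. The gap to the nearest of them was 0.859 of the range of the group, above Dixon's 95% critical value of 0.829 for 4 mice. Its 2 technical columns were 3.33 and 3.47. It was the 1 such case among 28 groups examined, and chance gives about 1 in 20.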

How the results depend on the processing

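The differences of the 5 genes kept their sign in all alternatives other than those given here, 31 per gene and 29 for Tfrc, and in day 5 against day 1, where they were tested, their side of the threshold. Tfrc was not fitted with technical column 1 alone, where fewer than 3 day 1 mice had a value, or with a value required in every mouse. The cause of each shift was not tested. With quantile normalization the day 2 difference was -3.19 for Alas2 and 0.74 for Slc40a1, and the day 5 minus day 2 difference was 2.50 for Alas2, 0.27 for Ppox and -0.30 for Slc40a1; with arrays of equal spread, day 2 gave -3.41 for Alas2 and 0.75 for Slc40a1. The day 5 minus day 1 difference of Tfrc, 0.03, turned to -0.14 with array weights and -0.0931 with a block on mouse number, and ran from -0.32 to 0.21 with 1 mouse left out; that of Alas2 ran from 0.85 to 1.45 and passed the threshold without day 1 mouse 3. The day 1 difference of Tfrc turned without day 1 mouse 2 (0.21), and its day 5 difference without day 5 mouse 4 (0.0531).

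Counts of probes past the threshold changed as follows. Day 1 (194) had 121 with equal spread, 350 with array weights, 113 without the mice of low column correlation and 99 to 219 with 1 mouse left out. Day 2 (691) had 338 with quantile normalization, 363 with equal spread, 449 with the compared groups alone, 409 without those mice and 503 to 683 with 1 left out. Day 5 (6) had 11 with at least 1 mouse per group, 1 with the compared groups alone, 1 without those mice, 0 to 5 with 1 left out, and in limma 0 with technical column 2, a variance trend or the block (419, 422 and 426 at an unadjusted p under 0.05). Day 5 against day 2 (441) had 83 with quantile normalization, 152 with equal spread and 296 to 452 with 1 left out. Day 5 against day 1 (76) had 37 with equal spread, 135 with array weights, 48 without those mice and 30 to 85 with 1 left out, the low counts coming without day 1 mouse 2 (30) or 4 (46) or day 5 mouse 1 (36) or 5 (43). The share of higher calls went from 67.1% to 81.4% (quantile) there, from 71.7% to 86.8% (equal spread) for day 5 against day 2, from 39.8% to 29.8% (equal spread) on day 2 and from 66.7% to 50% (quantile) on day 5.

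Of the other pathway genes, the 1 called on day 1 became 0 with equal spread, column 1 or the compared groups alone, and 0 to 2 with 1 mouse left out. The 7 of day 2 became 2 with quantile normalization, 3 with equal spread, 2 and 4 with columns 1 and 2, 3 with a value in every mouse, 4 with the compared groups alone, 4 with the block, 2 without the mice of low column correlation and 3 to 7 with 1 left out. The 4 of day 5 against day 2 became 2 with quantile normalization, equal spread or column 1, and 3 to 4 with 1 left out. The 1 of day 5 against day 1 became 3 with array weights, 2 with the block and 1 to 2 with 1 left out.

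Mouse numbers did not pair the mice: deviations from the group means correlated by -0.00472 on average over 27 pairs of the same number (-0.249 to 0.325), and 4 of 19 mice correlated best with their own number. The block gave 178, 615 and 55 probes on day 1, on day 2 and for day 5 against day 1.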
